A study of Mus musculus with 7 samples.

Results

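Genes of myelin and of the mature oligodendrocyte were followed in the endpoint tumors of a mouse glioma model. They were taken by symbol (Mbp, Mobp, Mog, Mag, Mal, Cnp, Cldn11, Opalin and Ugt8a) and are 9 of the 19257 genes of the table. Bulk RNA-Seq had been run on 7 tumors, 1 library per brain. The 3xCR group (3 libraries, replicates 2, 3 and 4) carried tumors induced by in utero electroporation of a CRISPR-Cas9 construct with guides against tumor suppressors that include Trp53 and Nf1, together with a piggyBac transposon for a green fluorescent reporter. The GPC6 group (4 libraries, replicates 1 to 4) carried the same construct and reporter plus a further transposon, also piggyBac, for overexpression of GPC6 (a proteoglycan anchored at the cell surface). The guides against the tumor suppressors are thus shared by both groups, and no tumor-free brain was compared. Animals of both sexes on CD-1 and C57BL/6 backgrounds were used, and the sex, strain and age behind each library are not given in the sources used here. Fluorescent tissue was dissected, so each library holds RNA of tumor cells and of the host cells among them. The comparison asks how adding GPC6 bears on this tumor, here on its myelin transcripts.

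Oligodendrocytes wrap axons of the central nervous system in myelin, a stack of membrane that is compacted by proteins such as MBP and is rich in galactolipids. They arise from precursors that carry PDGFRA, pass through a committed stage marked by GPR17 and BCAS1, and switch on the myelin genes under the transcription factors SOX10 and MYRF. Gliomas of this kind often hold cells with precursor features, and they grow along and through myelinated tracts, so that a bulk library can receive myelin transcripts from the tumor, from the host or from both. In bulk tissue, fewer oligodendrocytes and less RNA per oligodendrocyte cannot be told apart.

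The promoter sequences of 4 of the genes are shown because Mobp and Mal, whose levels varied together across the tumors, differ in the motifs their windows hold, while Cnp and Mag hold both motifs. Sequences are from RefSeq on GRCm38.p6, which gave a window for 8 of the 9 genes and none for Mbp, read 5′ to 3′ on the strand of the gene. They cover the 250 bases before a start, and 35 bases that lie past an earlier annotated start were left out for Mobp and Cnp. Capitals mark the core of the SOX motif (ACAAAG, or CTTTGT on the other strand) and the core of the MYRF motif (CTGGCAC, or GTGCCAG on the other strand), and no match of the first overlapped a match of the second in the windows shown.
Mobp, chr9:120149492-120149706, plus strand: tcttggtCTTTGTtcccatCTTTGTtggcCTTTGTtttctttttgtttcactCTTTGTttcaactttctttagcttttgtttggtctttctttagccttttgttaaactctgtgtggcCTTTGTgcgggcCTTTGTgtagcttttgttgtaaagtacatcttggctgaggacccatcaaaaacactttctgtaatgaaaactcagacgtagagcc
Mal, chr2:127656696-127656945, minus strand: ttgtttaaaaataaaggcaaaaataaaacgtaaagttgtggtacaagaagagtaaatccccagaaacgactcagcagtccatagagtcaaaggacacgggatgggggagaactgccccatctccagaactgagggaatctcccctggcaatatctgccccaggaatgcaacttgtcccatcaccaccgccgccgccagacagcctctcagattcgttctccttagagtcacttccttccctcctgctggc
Cnp, chr11:100574689-100574903, plus strand: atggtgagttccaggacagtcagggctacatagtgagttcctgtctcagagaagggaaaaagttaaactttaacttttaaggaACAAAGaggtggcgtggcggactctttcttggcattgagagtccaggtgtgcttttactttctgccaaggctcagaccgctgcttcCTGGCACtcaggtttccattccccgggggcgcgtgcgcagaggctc
Mag, chr7:30914923-30915172, minus strand: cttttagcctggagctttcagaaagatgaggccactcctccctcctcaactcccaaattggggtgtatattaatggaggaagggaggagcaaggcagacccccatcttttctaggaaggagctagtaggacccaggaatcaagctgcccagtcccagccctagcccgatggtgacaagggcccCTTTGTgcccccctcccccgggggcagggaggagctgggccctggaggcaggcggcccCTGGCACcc
The Mobp window held 6 SOX cores, the highest number in any of the 32851 windows of this length, and no MYRF core. Mal, whose level ran with that of Mobp, had neither core in its window. Cnp and Mag held 1 SOX core and 1 MYRF core each. Among the members not printed, Opalin had 1 SOX core, whereas Mog, Cldn11 and Ugt8a had none of either. At least 1 SOX core stood in 16.5% of all windows and at least 1 MYRF core in 4.19%. A match says only that these letters are present.

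Between 7197692 and 18879762 reads fell on genes in a library (median 10566182), and the values are normalized counts, that is, counts over the size factor of the library. Below, values of the 3xCR tumors are in the order of replicates 2, 3 and 4, and those of the GPC6 tumors in the order of replicates 1, 2, 3 and 4. Gpc6, on chromosome 14 from 116925315 to 117976544 of GRCm38, was measured at 217, 226 and 126 normalized counts in the 3xCR tumors. The GPC6 tumors had 675, 263, 3434 and 5084. The library labelled GPC6 replicate 2 thus lay close to the 3xCR libraries for the gene that defines its group. The groups did not overlap for Gpc6, as for 6.32% of all genes. Its log2 fold change was 2.85 (SE 0.98, limma adjusted p = 0.730 over all 7 libraries), and DESeq2 on the recovered reads gave 3.65 (DESeq2 adjusted p = 0.028). GPC6 replicate 1 stood apart for its neuronal genes, with 20138 normalized counts of Snap25, a synaptic protein, against 126 to 7469 in the other libraries, and for 541 normalized counts of Avp, the vasopressin gene of the hypothalamus, against 0 to 7.1. The comparison of the groups, the spread and the medians of the main lists are given with and without them. Transcripts of every member were read in each library, as the lowest read count of any member was 28. Whether they came from tumor or host cells was not tested.

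On the log2 scale, the 3xCR tumors lay closer to each other than the GPC6 tumors did for each of the 9 genes. GPC6 replicates 1 and 2 were within or above the 3xCR range for most members, whereas GPC6 replicates 3 and 4 were both below it for 6 members (Mbp, Mobp, Mog, Mag, Cnp and Ugt8a). Together the 9 genes took 0.524%, 0.622% and 0.481% of the reads on genes in the 3xCR tumors. In the GPC6 tumors they took 0.703%, 0.800%, 0.190% and 0.146%. The highest share was thus that of the library labelled GPC6 replicate 2, followed by GPC6 replicate 1, and the 2 lowest were those of GPC6 replicates 3 and 4.

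**Figure D1:**
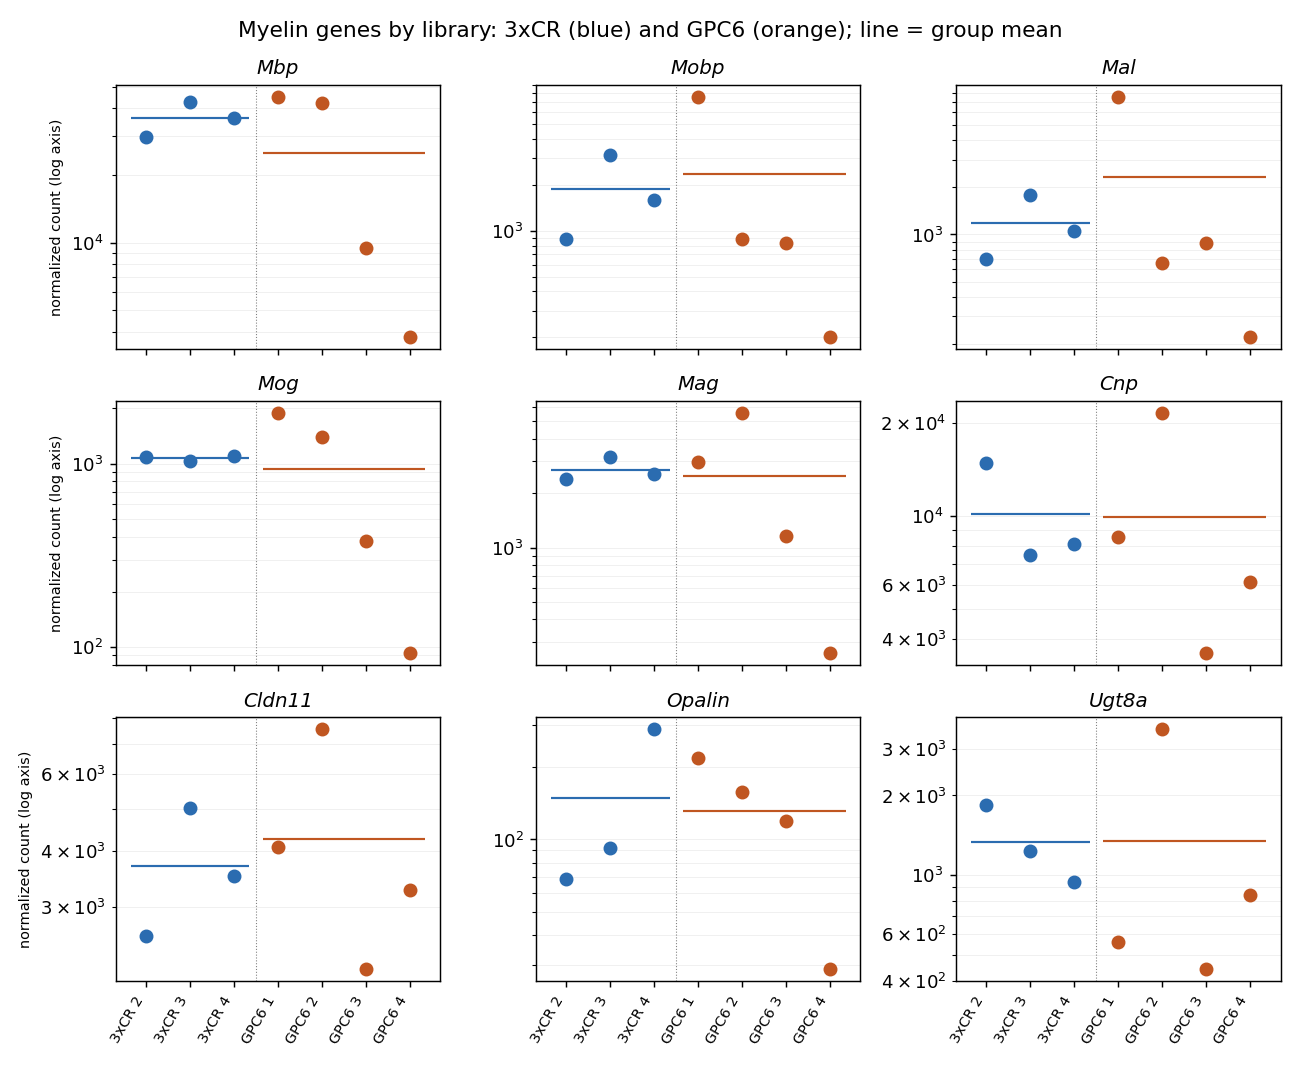
Normalized count (log axis, a scale of its own in each panel) of the 9 myelin genes in each library, with 3xCR in blue and GPC6 in orange; each point is 1 library and each horizontal line a group mean. For Mog the 3 blue points, at 1032 to 1104, lie between the 2 highest and the 2 lowest orange points, which run from 92.6 to 1886, and for Mbp and Mag the 2 lowest points are orange as well.

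Of the genes of compact myelin, Mbp encodes myelin basic protein, which holds the cytoplasmic faces of the sheath together, and lies on chromosome 18 from 82475146 to 82585637 (GRCm38, GENCODE, as for all members). Its normalized counts were 29841, 42635 and 36078 in the 3xCR tumors, a mean of 36184 ± 6398 (SD, n = 3). The GPC6 tumors had 44909, 42233, 9492 and 3784, a mean of 25104 ± 21478 (SD, n = 4). GPC6 replicate 1 was above every 3xCR tumor and GPC6 replicates 3 and 4 were below all of them, so the groups overlapped. The fitted log2 fold change (GPC6 against 3xCR, on log2(normalized count + 1)) was -1.15 with an SE of 0.87 and a 95% interval from -3.16 to 0.86, and did not pass the test (limma adjusted p = 0.738).

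Mobp, on chromosome 9 from 120149707 to 120181484, encodes a small basic protein of the same sheath faces. It was measured at 878, 3141 and 1597 normalized counts in the 3xCR tumors and at 7515, 877, 831 and 202 in the GPC6 tumors. The highest and the lowest tumor were both of the GPC6 group, 37.3 times apart. Mal, on chromosome 2 from 127633226 to 127656695, encodes a proteolipid that takes part in membrane sorting. Its normalized counts were 702, 1774 and 1057 in the 3xCR tumors and 7535, 653, 884 and 222 in the GPC6 tumors. GPC6 replicate 1 alone therefore held more Mal than the 3 3xCR tumors added together. For both genes the direction depended on the scale: the mean normalized count was higher in GPC6 tumors (2356 ± 3453 against 1872 ± 1156 for Mobp, 2323 ± 3485 against 1177 ± 546 for Mal, SD, n = 4 and 3), while the mean of the log2 values was lower. Their log2 fold changes were -0.68 (95% interval -3.19 to 1.84) and -0.14 (-2.57 to 2.28), and edgeR on the recovered reads gave 0.32 and 0.97.

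At the surface of the sheath, Mog encodes an immunoglobulin-like protein of the outermost layer and lies on chromosome 17 from 37010743 to 37023398. The 3xCR tumors had 1089, 1032 and 1104 normalized counts, a coefficient of variation of 3.54%. The GPC6 tumors had 1886, 1393, 378 and 92.6, a coefficient of variation of 90.0%. No GPC6 tumor lay within the 3xCR range: replicates 1 and 2 were above it, and replicates 3 and 4 were below. The means were 1075 ± 38.0 and 937 ± 843 (SD, n = 3 and 4), and the log2 fold change of -0.96 had a 95% interval from -3.16 to 1.24 (limma adjusted p = 0.780).

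Mag, on chromosome 7 from 30899176 to 30914873, encodes the myelin-associated glycoprotein, which faces the axon and limits its outgrowth. Its levels were 2390, 3162 and 2559 normalized counts in the 3xCR tumors and 2963, 5556, 1164 and 260 in the GPC6 tumors. The library labelled GPC6 replicate 2 was the highest here, and GPC6 replicates 3 and 4 were again below every 3xCR tumor. The log2 fold change was -0.84 (95% interval -2.98 to 1.29, limma adjusted p = 0.801), and it came to -0.0044 when GPC6 replicate 4 was left out.

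Cnp encodes a nucleotide phosphodiesterase that keeps cytoplasmic channels open in myelin and is switched on earlier in the lineage than most myelin genes. It lies on chromosome 11 from 100574904 to 100591729 and shares exon bases with Dnajc7, which ranged only from 1392 to 2331 normalized counts over the 7 libraries. Cnp was measured at 14875, 7501 and 8100 normalized counts in the 3xCR tumors and at 8552, 21523, 3602 and 6108 in the GPC6 tumors. The 2 highest tumors were thus 3xCR replicate 2 and the library labelled GPC6 replicate 2, a pair that did not lead for Mbp or Mog. The means were almost equal at 10159 ± 4095 and 9946 ± 7978 (SD, n = 3 and 4), and the log2 fold change of -0.28 had a 95% interval from -1.64 to 1.09.

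Ugt8a, on chromosome 3 from 125865271 to 125938619, encodes the enzyme that adds galactose to ceramide, the step that makes the main galactolipid of myelin. Its normalized counts were 1844, 1239 and 939 in the 3xCR tumors and 561, 3551, 442 and 840 in the GPC6 tumors. GPC6 replicate 1, the highest of all tumors for Mbp, Mobp, Mog and Mal, was the second lowest of all for Ugt8a. The log2 fold change was -0.48 (95% interval -2.05 to 1.10).

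Cldn11 encodes the claudin of the tight junctions that seal the layers of the sheath and lies on chromosome 3 from 31149920 to 31164324. It was measured at 2574, 5011 and 3521 normalized counts in the 3xCR tumors and at 4094, 7558, 2164 and 3278 in the GPC6 tumors. Here GPC6 replicate 4 lay within the 3xCR range, unlike for Mbp, Mog and Mag. Cldn11 had the narrowest GPC6 range of the 9 genes, 3.49 times from lowest to highest, and was the sole member with a log2 fold change above 0 (0.11, 95% interval -0.90 to 1.12). Opalin, on chromosome 19 from 41061710 to 41077113, encodes a transmembrane protein of oligodendrocytes and was the scarcest member per length. Its normalized counts were 68.5, 92.1 and 287 in the 3xCR tumors and 218, 158, 120 and 28.8 in the GPC6 tumors. It was the only member whose highest tumor was of the 3xCR group, and its log2 fold change was -0.22 (95% interval -1.99 to 1.56).

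Per kilobase of annotated exon, the members ran in the order Mbp, Cnp, Cldn11, Mal, Mag, Mog, Mobp, Ugt8a and Opalin, with means over the 7 libraries of 3525, 2758, 2154, 660, 633, 585, 314, 297 and 47.2 normalized counts per kilobase. In the 4 GPC6 tumors the SDs of all neighbours in this order overlapped. In the 3 3xCR tumors the SDs did not overlap for 3 pairs of neighbours: Cldn11 and Mal (1980 ± 657 against 424 ± 197 normalized counts per kilobase), Mog and Mobp (631 ± 22.3 against 273 ± 169) and Ugt8a and Opalin (296 ± 102 against 50.7 ± 40.8). Mbp made up 55.0%, 65.0% and 65.3% of the reads of the 9 genes in the 3xCR tumors. In the GPC6 tumors it made up 57.4%, 50.6%, 49.8% and 25.5%, so that in the last of these Cnp took more reads than Mbp.

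None of the 9 genes passed the test between GPC6 and 3xCR tumors. At an adjusted p under 0.05 limma called 0 of the 14782 genes tested (0% of all genes), and at an unadjusted p under 0.05 it called 0 of the 9 members, beside 4.66% of all genes. On the recovered reads, edgeR, DESeq2 and limma voom likewise called 0 of the 9 at an unadjusted p under 0.05, beside 6.7%, 12.1% and 3.38% of all genes. At an adjusted p under 0.05, edgeR and voom called no gene, and DESeq2 called 9 genes, Gpc6 among them and none of them a member (0.0609% of all genes). The mean log2 value was lower in GPC6 tumors for 8 of the 9 members and higher for 1, and the median log2 fold change of the 9 was -0.48, beside -0.02 over all genes tested. The balance of directions depended on the scale: edgeR gave 3 members higher and 6 lower with a median of -0.04, DESeq2 gave 4 higher and 5 lower with a median of -0.02, and the mean normalized count was higher in GPC6 tumors for 4 of the 9 (Mobp, Mal, Cldn11 and Ugt8a). The values of the groups overlapped for all 9 members, while 6.32% of all genes had groups that did not overlap. The lower ends of the 95% intervals ran from -3.19 for Mobp to -0.90 for Cldn11. Their upper ends ran from 0.86 for Mbp to 2.28 for Mal. For every member but Cldn11 the interval reached further below 0 than above it. With this spread, a fall of several fold could not be told from no change for most members. A rise could not be told from no change either, as the upper end was above 1 for every member but Mbp.

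**Figure D2:**
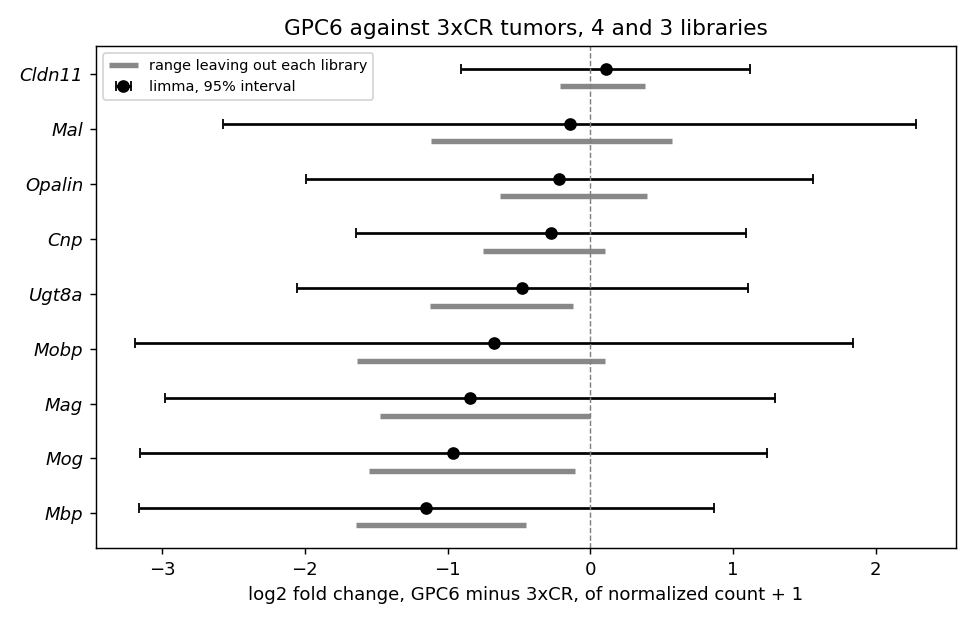
Log2 fold change of the 9 myelin genes, GPC6 against 3xCR, on log2(normalized count + 1); points and thin lines are the limma estimate from 3 and 4 libraries with its 95% interval, and grey bars the range of the estimate when each library is left out in turn. Every interval spans 0, from Mbp at -1.15 to Cldn11 at 0.11, and the grey bars of Mbp, Mog, Mag and Ugt8a stay below 0.

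The values depended on single libraries. Leaving out GPC6 replicate 1 took the median of the 9 to -1.12, with Mobp at an unadjusted p under 0.05 (3.17% of all genes), and leaving out GPC6 replicate 4 took it to -0.0044. Without the library labelled GPC6 replicate 2 the median was -0.75 and Ugt8a stood at an unadjusted p under 0.05 (9.46% of all genes). Leaving out GPC6 replicates 1 and 2 together, a choice made after the data were seen, removes the 2 libraries labelled GPC6 with the most myelin transcripts. All 9 members then had a log2 fold change below 0 with a median of -1.30, and 6 of them (Mbp, Mobp, Mog, Mag, Cnp and Ugt8a) had an unadjusted p under 0.05, beside 6.1% of all genes, but limma again called 0 genes at an adjusted p under 0.05. With a weight fitted for each library, the same count of 6 members (Mbp, Mobp, Mog, Mag, Cldn11 and Ugt8a) had an unadjusted p under 0.05, beside 34.5% of all genes, and Mbp an adjusted p of 0.031 by limma, beside 13.3% of all genes under 0.05.

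The spread between tumors of a group was larger in GPC6 than in 3xCR tumors for 9 of the 9 members on the log2 scale. This was also so for 70.5% of all genes tested, so the direction alone is not particular to these genes, and the size of the spread is given as a description. The median SD of the log2 values over the 9 was 0.49 in 3xCR tumors and 1.74 in GPC6 tumors, beside 0.35 and 0.53 over all genes. From the lowest to the highest tumor the median member varied 1.96 times in the 3xCR group and 11.9 times in the GPC6 group, beside 1.58 and 2.27 times over all genes, where a range over 4 libraries is wider than one over 3 by its number alone. The difference was widest for Mog, with an SD of 0.051 in 3xCR and 1.98 in GPC6 tumors, and smallest for Opalin, with 1.08 and 1.27. In normalized counts the SD of Opalin was the larger in 3xCR tumors (120 against 79.3). Without GPC6 replicate 1 the log2 SD was larger in GPC6 tumors for 9 of the 9 members (median 1.32, and 56.3% of all genes). Without the library labelled GPC6 replicate 2 it was so for 7 (median 1.77, and 67.2% of all genes), the exceptions being Cldn11 and Ugt8a. Without both it was so for 7 (median 1.40, and 48.8% of all genes), and the exceptions were Cnp and Cldn11.

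**Figure D3:**
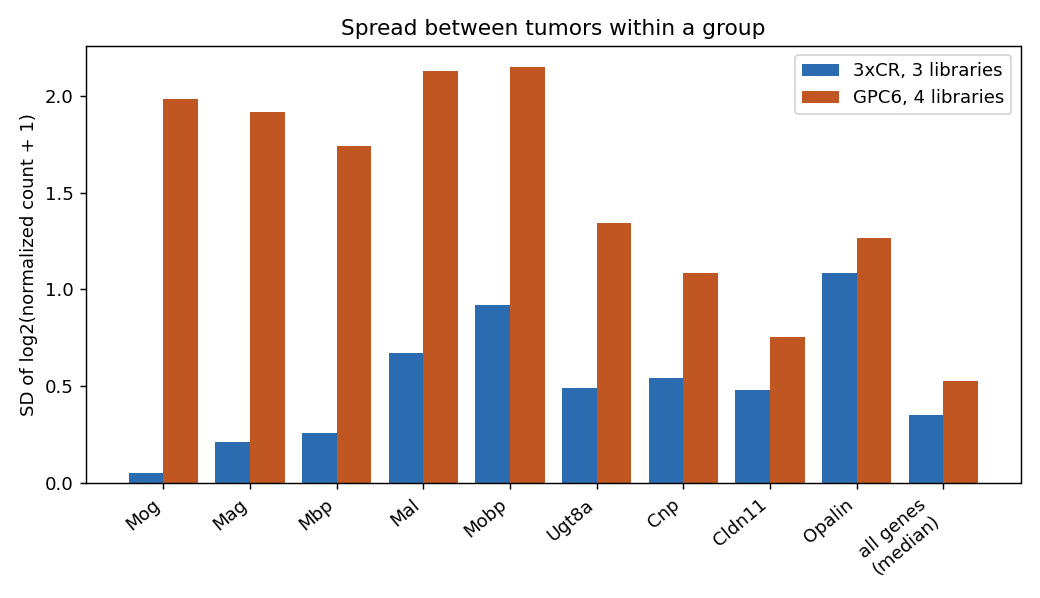
SD of log2(normalized count + 1) between the tumors of a group for each myelin gene and, at the right, the median over all genes tested (blue 3xCR, 3 libraries; orange GPC6, 4 libraries). The orange bar is the taller in all 9 pairs, from 0.75 for Cldn11 to 2.15 for Mobp, and the blue bars of Mog, Mag and Mbp are below the blue bar of all genes at 0.35.

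The lowest tumor was of the GPC6 group, which holds 4 of the 7 libraries, for all 9 members. The share of all genes for which this holds was not counted. GPC6 replicate 4 was the lowest of the 7 libraries for 6 of the 9 genes (Mbp, Mobp, Mog, Mag, Mal and Opalin), which is 66.7% of them beside 15.6% of all genes tested. For Cnp, Cldn11 and Ugt8a the lowest was GPC6 replicate 3. GPC6 replicates 3 and 4 were the 2 lowest libraries for 5 of the 9 genes, beside 672 of 14782 genes in all (4.5%). Highest was GPC6 replicate 1 for Mbp, Mobp, Mog and Mal, 44.4% of the members beside 31.3% of all genes. The library labelled GPC6 replicate 2 was highest for Mag, Cnp, Cldn11 and Ugt8a, also 44.4%, beside 12.2% of all genes. GPC6 replicates 3 and 4 were also the tumors with the most Gpc6 (3434 and 5084 normalized counts), and whether the 2 levels are related was not tested.

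Some pairs of members varied together over the 7 libraries, as the correlations of their log2 values show. Of the 36 pairs, 5 had a Pearson's r above 0.9 and 4 were below 0, with a median of 0.60. Mbp and Mog had an r of 0.979 (Spearman's rho 0.79), Mbp and Mag 0.958 (0.86) and Mog and Mag 0.957 (0.71). Two-sided exact permutation tests over the 7 libraries, with Benjamini-Hochberg adjustment over the 36 pairs, gave adjusted p = 0.036, 0.036 and 0.054 for these r, and adjusted p = 0.239, 0.214 and 0.288 for rho. These relations rested on GPC6 replicates 3 and 4: without them, the libraries farthest from the median, r was 0.577, 0.570 and 0.297. Mobp and Mal had an r of 0.975 over all libraries (rho 0.89, exact permutation test, adjusted p = 0.036 for r and 0.148 for rho) and of 0.947 without GPC6 replicates 1 and 4, the libraries farthest from the median for Mobp. Without that same pair of libraries r was 0.966 for Mbp and Mog, 0.885 for Mbp and Mag and 0.903 for Mog and Mag. Cnp and Ugt8a had an r of 0.902 (rho 0.75, exact permutation test, adjusted p = 0.054 for r and 0.239 for rho), which was 0.633 without the library labelled GPC6 replicate 2 and GPC6 replicate 3. These pairs were not separate from each other: r was 0.811 for Mobp and Mog and 0.793 for Mbp and Mobp (exact permutation test, adjusted p = 0.120 for each), 0.611 for Mag and Cnp (adjusted p = 0.317 by the same exact test), and it came down to 0.077 for Mobp and Cnp (adjusted p = 0.936, exact) and -0.178 for Mobp and Ugt8a (adjusted p = 0.818, exact). In all, 3 of the 36 pairs had an adjusted p under 0.05 for r and 0 for rho in these exact tests.

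**Figure D4:**
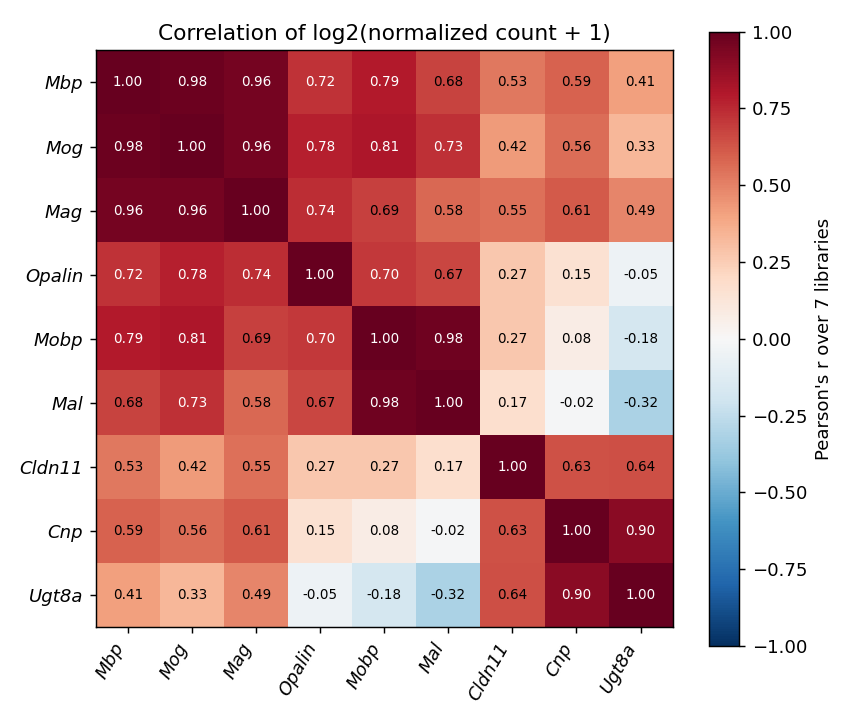
Pearson's r over the 7 libraries between the log2(normalized count + 1) of each pair of the 9 myelin genes (colour scale from -1 to 1, the value printed in each cell). A block of Mbp, Mog and Mag stands at 0.96 or above, Mobp and Mal are paired at 0.98, and Cnp and Ugt8a at 0.90.

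The balance between members within a tumor shifted accordingly. Mobp was measured at 13.4 times the normalized count of Ugt8a in GPC6 replicate 1 and at 0.240 times in GPC6 replicate 4, and in the 3xCR tumors the ratio was 0.476, 2.54 and 1.70. These ratios carry the lengths of both genes, which are the same in each library. Mbp over Cnp was 2.01, 5.68 and 4.45 in the 3xCR tumors and 5.25, 1.96, 2.64 and 0.620 in the GPC6 tumors. Mog over Mbp, by comparison, stayed between 0.024 and 0.042 in all 7 tumors. Mbp over Pdgfra, the growth factor receptor of the precursors, was 3.86, 7.54 and 15.6 in the 3xCR tumors and 14.3, 2.45, 2.03 and 1.03 in the GPC6 tumors.

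Further genes of the mature oligodendrocyte leaned the same way without passing the test. Of 32 such genes, 25 were lower and 7 higher by their mean log2 value in GPC6 tumors, with a median log2 fold change of -0.63 beside -0.02 over all genes. This median was -0.76 without GPC6 replicate 1, -0.54 without the library labelled GPC6 replicate 2 and -1.05 without both. None passed at an adjusted p under 0.05, and 2 were lower at an unadjusted p under 0.05 (1.92% of all genes in that direction). These were Klk6, a secreted protease of oligodendrocytes, at -1.59, and Cryab, a small heat shock protein, at -0.93 (Cryab was chosen after its values were seen). Klk6 ranged from 434 to 1290 normalized counts in 3xCR and from 110 to 377 in GPC6 tumors without overlap. Omg, a surface protein of myelin that neurons express too, had the largest log2 fold change of the list at 0.80. GPC6 replicates 3 and 4 were the 2 lowest libraries for 10 of the 32, beside 4.5% of all genes.

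Genes of myelin lipid synthesis all lay below 0 on the log2 scale, and none passed the test. All 8 had a lower mean log2 value in GPC6 tumors with a median log2 fold change of -0.32, beside a lower mean log2 value for 51.7% of all genes. They ran from -0.83 for Gal3st1, which adds the sulfate of sulfatide, to -0.08 for Sptlc1, which starts ceramide synthesis. Gal3st1 was measured at 1246, 726 and 478 normalized counts in the 3xCR tumors and at 369, 1406, 233 and 268 in the GPC6 tumors, highest in the library labelled GPC6 replicate 2 and lowest in GPC6 replicate 3, as Ugt8a was.

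Earlier stages of the lineage were followed from tumor to tumor in the same libraries. A score for each list was taken as the mean of its genes' log2 values, each centred on its own mean. The score of the 9 members was 0.06, 0.49 and 0.34 in the 3xCR tumors and 0.95, 0.75, -0.78 and -1.80 in the GPC6 tumors. For the 12 precursor genes it was 0.69, 0.43 and -0.95, and -0.96, 1.13, 0.03 and -0.37. For the 10 genes of committed precursors and newly formed oligodendrocytes it was 1.21, -0.04 and -0.39, and -0.67, 1.49, -0.80 and -0.79. GPC6 replicate 1, with the highest score for the members, thus had, with 3xCR replicate 4, the lowest score for the precursors, and GPC6 replicate 4, the lowest for the members, was at -0.37 for them. For the committed genes GPC6 replicates 3 and 4 had the 2 lowest scores, as they had for the members.

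**Figure D5:**
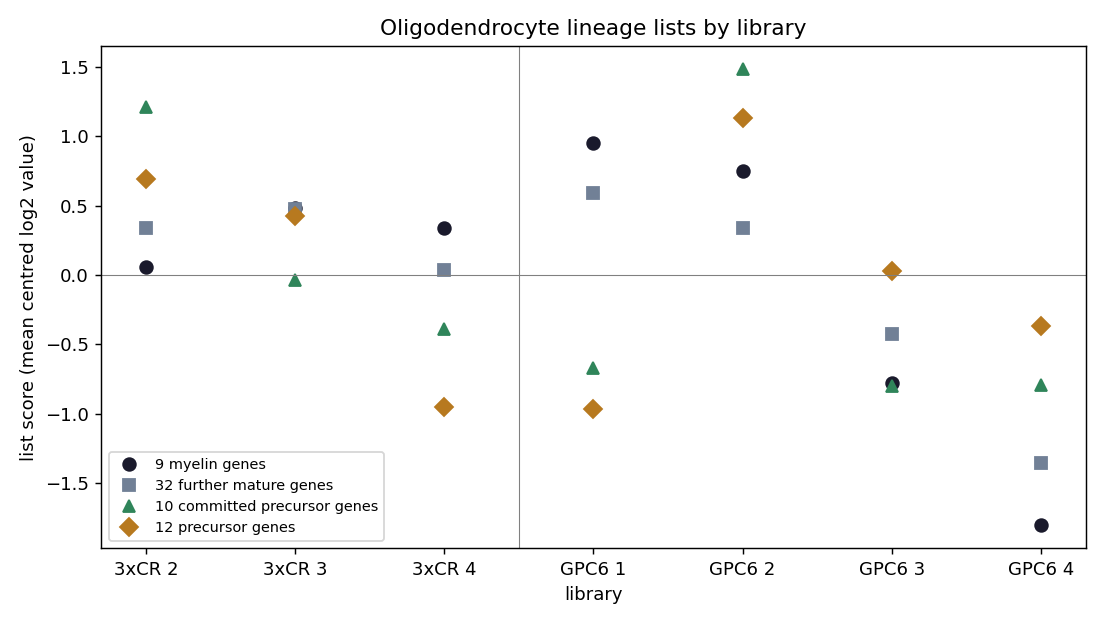
List score (mean of the genes' log2 values, each centred on its mean over the 7 libraries) in each tumor for the 9 myelin genes, 32 further mature genes, 10 genes of committed precursors and 12 precursor genes; the vertical line parts 3xCR from GPC6. The myelin and further mature scores are lowest in GPC6 replicate 4 at -1.80 and -1.35, while the precursor score is lowest in GPC6 replicate 1 at -0.96.

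Among the precursor genes, 8 were lower and 4 higher by their mean log2 value in GPC6 tumors, with a median log2 fold change of -0.09. They ran from -0.62 for Matn4, a matrix protein, to 0.32 for Ptprz1, a receptor phosphatase. All 10 committed precursor genes had a lower mean log2 value, with a median of -0.43 and values from -0.88 for Rras2 to -0.10 for Gpr17, an orphan receptor that holds back maturation. Gpr17 was measured at 15999, 7335 and 2651 normalized counts in the 3xCR tumors and at 2577, 18129, 4212 and 8063 in the GPC6 tumors. Of the 10 transcription factors of the lineage, 7 had a lower and 3 a higher mean log2 value, with a median of -0.15, from -0.56 for Nkx6-2 to 0.21 for Sox8. This balance depended on the scale: by mean normalized count Olig1 and Tcf7l2 were lower in GPC6 tumors and all others of this list were higher. Without the library labelled GPC6 replicate 2 the medians were -0.40 for the precursors, -0.97 for the committed genes and -0.58 for the transcription factors, and without GPC6 replicate 1 they were 0.36, -0.29 and 0.25. Limma called 0 genes of these 3 lists at an unadjusted or an adjusted p under 0.05. Cnp and Ugt8a went with the score of the committed genes (r = 0.90 and 0.93). They went about as closely with the transcription factors (0.90 and 0.92) and with myelin lipid synthesis (0.88 and 0.85). Mbp, Mog and Mag went with the score of the further mature genes (0.97, 0.98 and 0.94), and with that of myelin lipid synthesis at 0.81, 0.76 and 0.86. Ugt8a went also with the score of the precursors (0.76). Each r is a description over the same 7 libraries and does not single out 1 stage.

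Genes of receptors for myelin inhibitors, of ganglioside synthesis and of the paranode and node, some of which glia express too, had mostly higher mean log2 values in GPC6 tumors, without passing the adjusted test. MAG binds gangliosides and, with the other inhibitors of outgrowth, the Nogo receptors. Of 10 genes of these receptors and of ganglioside synthesis, 8 had a higher mean log2 value with a median log2 fold change of 0.44, and 3 were higher at an unadjusted p under 0.05 (2.74% of all genes in that direction): Rtn4rl1 at 2.33, and Rtn4rl2 and Lingo1, which were chosen after their values were seen. Of 11 genes of the paranode and the node, where the sheath meets the axon, 10 had a higher mean log2 value with a median of 0.51. Sptbn4, a spectrin of the node, was higher at an unadjusted p under 0.05 with a log2 fold change of 2.19. Rtn4rl1 ranged from 20.7 to 133 normalized counts in 3xCR and from 63.2 to 728 in GPC6 tumors, and Sptbn4 from 35.9 to 245 and from 194 to 1946. In both cases GPC6 replicate 1 was the highest. Without it the median was 0.30 for the receptor and ganglioside genes and 0.16 for the paranode and node genes, and without the library labelled GPC6 replicate 2 as well it was 0.44 and -0.075. Neuronal genes moved with them, since the mean log2 value of all 12 listed was higher in GPC6 tumors (median log2 fold change 2.14, summed level 4356 to 7319 normalized counts in 3xCR and 3473 to 65526 in GPC6). Of these 12, 4 were higher at an unadjusted p under 0.05 by limma, beside 2.74% of all genes in that direction. The part of the neuronal genes in the result was not tested. Their median was 1.44 without GPC6 replicate 1, 2.86 without the library labelled GPC6 replicate 2 and 2.30 without both.

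Other cells of the tissue varied beside the members as follows. The score of the 10 proliferation genes was -3.25 in GPC6 replicate 1 and -0.12 to 1.10 in the other 6 libraries, with a summed level of 5508 to 12881 normalized counts in 3xCR and 692 to 14341 in GPC6. The ependyma and choroid plexus list, of which 7 of 8 genes were tested, was highest in GPC6 replicate 1 for all 7, beside 31.3% of all genes. Mobp and Mal went with the score of this list (r = 0.91 for each, over the 7 libraries). Their r was 0.83 and 0.85 without GPC6 replicate 1, and 0.99 and 0.97 without the library labelled GPC6 replicate 2. The summed level of this list was 359 to 3855 normalized counts in 3xCR and 110 to 13033 in GPC6. All 10 microglia and macrophage genes had a lower mean log2 value in GPC6 tumors (median -0.52, summed level 13600.5 to 19942 in 3xCR and 8513 to 13580 in GPC6 normalized counts), 3 of them at an unadjusted p under 0.05, beside 1.92% of all genes in that direction (among them Aif1 and, chosen after its values were seen, Tmem119). Astrocyte genes had a median log2 fold change of 0.28 over 10 genes, endothelial genes 0.40 over 8, Schwann cell genes -0.60 over the 3 of 6 tested and hypothalamic genes 2.44 over the 3 of 6 tested. The hypothalamic median was 0.41 without GPC6 replicate 1, and that of the proliferation genes went from -0.69 to 0.29. No gene of these lists passed at an adjusted p under 0.05 with limma, and their part in the levels of the 9 members was not tested.

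Among the 10 genes whose levels were most like the members' mean over the 7 libraries were Pou3f1, Ring1, Atp11a, Sytl2, Lrrc46, Pde8a, Zdhhc3, Tmem125 and Secisbp2l, and Pearson's r of the 10 ran from 0.955 to 0.983. Pou3f1, a POU-domain transcription factor, had 338, 351 and 291 normalized counts in the 3xCR tumors and 430, 413, 205 and 122 in the GPC6 tumors, with GPC6 replicates 1 and 2 above and replicates 3 and 4 below the 3xCR tumors, as for Mog, in a narrower range. Among the 100 most alike of the 14782 genes tested, members left out, were 5 of the 32 further mature genes (among them Gsn, Tmem125, Tmem88b and Galnt6). They also held 2 of the 10 transcription factors (Nkx6-2 and St18), and none of the other lists. This likeness is a description without a test. With so many genes ranked over 7 libraries, a high r can arise without a relation to myelin.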

How the data were processed

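Endpoint tumors of 3 brains (3xCR) and 4 brains (GPC6) were measured by bulk RNA-Seq of TruSeq Stranded mRNA libraries. The authors aligned reads to mm10 with STAR 2.5.0a (FastQC for quality), counted them on genes with Rsamtools and GenomicFeatures, and divided the counts by DESeq2 1.20.0 size factors, so that the deposited values are a linear signal, normalized for depth and not for gene length. Size factors assume that most genes do not change. The use of strand in counting is not given in the sources used here. Versions are per the submitters' processing notes. Groups and replicate numbers came from the sample labels, which do not say how animals relate. The p-values of the group comparison set the difference between groups against the spread between these libraries. They treat the libraries as independent, which the labels do not establish.

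All 7 columns were used. Of 19282 entries, 25 had names turned into dates (0.254% to 0.361% of reads) and were left out, and 96.0% of the remaining 19257 symbols matched GENCODE M21 of GRCm38. Whole reads were recovered from the value of 1 read per library, with 100% of values within 0.01 of a whole number (largest deviation 3.24e-05). GPC6 was compared with 3xCR by limma 3.58.1 (R 4.3.3) on log2(normalized count + 1), variance trend on the mean, over 14782 genes with a mean of at least 10 (99.9% of reads), two-sided, Benjamini-Hochberg adjusted. The scale understates changes of low genes. Settings tried besides were a pseudocount of 0.5 or 5, no filter and one at a mean of 50, equal totals or upper quartiles, no trend, library weights, edgeR 4.0.16, DESeq2 1.42.0 and voom on the recovered reads, a replicate block and leaving out each library. Leaving out GPC6 replicates 1 and 2 together, and either for the spread and the list scores, was added after seeing the data. Fits were tested on simulated data. Permutation tests of correlations were also added after seeing the data.

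The members and lists were chosen with earlier results of these data known. The text names all 9 members, for each list its most abundant gene and the 2 ends of its log2 fold changes, Gpc6, and the 10 genes most like the members' mean, apart from items that are not reported here. Counting error alone allows 1.64 to 4.64 normalized counts at a count of 0. Exon lengths are unions over GENCODE transcripts.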

Additional observations from a re-analysis of the deposited data

Results flagged for a closer look

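In the 4 GPC6 libraries, 7 of 67 quantities looked at had 1 library far from the other 3 (a gap to the nearest of more than 0.829 of the whole range). For independent and normally distributed values 3.35 would be expected by chance. The quantities need not be normally distributed and include list scores beside genes of the same lists, so 7 cannot be judged against that number. No member was among them on the log2 scale, and the 3 libraries of the 3xCR group are too few for this check. In normalized counts GPC6 replicate 1 lay far above the other GPC6 libraries for Mobp (7515 against 202 to 877) and Mal (7535 against 222 to 884). The library labelled GPC6 replicate 2 stood above the others for the score of the lineage transcription factors (1.18 against -0.59 to -0.31), for that of the committed precursors (1.49 against -0.80 to -0.67) and for Sptlc1 (652 normalized counts against 451 to 467). GPC6 replicate 1 stood below the others for the score of the proliferating cells (-3.25 against 0.43 to 1.10) and for Aif1, a microglial marker (218 normalized counts against 688 to 842), and above them for Ttr, the transthyretin of the choroid plexus (11813 normalized counts against 10.9 to 31.9). GPC6 replicate 4 stood above the others for Tnfrsf19, a co-receptor of the Nogo receptor (2146 normalized counts against 860 to 905).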

How the results depend on the processing

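The pseudocounts, filters, equal totals or upper quartiles, no variance trend and voom kept the direction of all 9 members (8 below 0, 1 above) and called none at an unadjusted p under 0.05. Other settings moved results, and the cause was not tested. The count of genes at an adjusted p under 0.05 was 0 and became 9 with DESeq2 and 1962 with library weights, which gave 3xCR replicate 3 a weight of 8.71 and GPC6 replicate 3 one of 4.47, with all others under 1. At an unadjusted p under 0.05, 689 genes became 5105 with weights, 1793 with DESeq2, 991 with edgeR and 121 (without 3xCR replicate 4) to 1399 (without GPC6 replicate 2) on leaving out 1 library. Of the 9 members, 0 became 6 with weights (34.5% of all genes), 6 without GPC6 replicates 1 and 2 together, and 0 to 1 on leaving out 1 library. Weights took Mbp to -1.91 (limma adjusted p = 0.031), Cldn11 to -0.86, Opalin to 0.26, Sox8 to -0.070 and Ptprz1 to -0.054.

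The members' median log2 fold change of -0.48 became -1.17 with weights, -0.04 with edgeR, -0.02 with DESeq2 and -1.12 to -0.0044 on leaving out 1 library. edgeR and DESeq2, which model mean counts, turned the direction of Mobp (0.32 and 0.35), Mal (0.97 and 1.00) and Nkx6-2 (0.11 and 0.14), and DESeq2 that of Ugt8a (0.021). DESeq2 gave no adjusted p for Opalin. Cldn11 was -0.42 without GPC6 replicates 1 and 2 together. Leaving out 1 library at a time gave -1.63 to 0.11 for Mobp, -1.12 to 0.57 for Mal, -0.75 to 0.11 for Cnp, -0.21 to 0.39 for Cldn11, -0.63 to 0.40 for Opalin, -1.23 to 0.17 for Nkx6-2, -0.42 to 0.77 for Sox8, -0.78 to 0.52 for Gpr17 and -0.078 to 0.61 for Ptprz1. These ranges all cross 0, and for Mobp the end above 0 came without GPC6 replicate 4.

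The deviations of same-numbered libraries from their group means had correlations of -0.19, 0.12 and 0.30. Those of other pairs between the groups ran from -0.46 to 0.50. With so few libraries these values show no clear pairing by number and cannot exclude it. By their log2 values, 3xCR replicate 2 and the library labelled GPC6 replicate 2 were the most alike of all pairs of libraries (r = 0.951). A fit with the replicate number as a block, which cannot use GPC6 replicate 1, gave a members' median of -1.12, 2 members at an unadjusted p under 0.05 (Mobp and Mal, beside 4.59% of all genes), 678 genes in all at that threshold, 0 at an adjusted p under 0.05, and 0.33 for Gpr17. The smallest library, at 7197692 reads, limits genes of few reads, and 3 against 4 tumors with this spread limit all members.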
